A study of Mus musculus with 8 samples.

Results

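The genes described here are those of the ubiquitin-proteasome system whose symbols begin with Psm, Ube2, Usp or Trim. They encode subunits and helpers of the proteasome, ubiquitin-conjugating (E2) enzymes, ubiquitin-specific proteases, and the tripartite-motif proteins. The families were picked with earlier results of these data known. Within them, members were taken by symbol, as probe sets with 1 platform symbol matching these names and a number or letter of the family, with the brightest probe set standing for a gene. This gave 73 of the 9294 genes tested: 21 Psm, 11 Ube2, 15 Usp and 26 Trim genes. By name the rule also took in Psme3ip1, whose protein binds a proteasome activator, and Ube2cbp, whose protein binds an E2 enzyme. They were compared on 8 arrays of mouse keratinocytes of the C57BL/6 strain, all of which had received v-rasHa, an activated viral form of Hras, 3 days earlier. In the wild-type group were 4 arrays of cells with intact Nfkbiz, and in the knockout group 4 arrays of Nfkbiz KO cells, which lack the nuclear NF-kB cofactor IkBz. The labels give no promoter, clone, age or pooling for either group and describe each sample as a biological replicate, and cultures without v-rasHa were not analysed here.

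Proteins are marked for destruction when E1, E2 and E3 enzymes attach ubiquitin in turn, and they are then degraded in the 26S proteasome, a 20S barrel of alpha and beta rings capped by a 19S regulator. Ubiquitin-specific proteases remove the mark, and most Trim proteins are RING-type E3 ligases, many of which act in innate immunity. Under interferon, the catalytic beta subunits are replaced by inducible ones to form the immunoproteasome, the PA28 cap made of Psme1 and Psme2 is added, and the ubiquitin-like protein ISG15 is attached to other proteins. The immunoproteasome and the PA28 cap can shape the peptides shown to T cells.

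On the log2 scale the medians of the arrays ran from 4.49 to 4.57, and correlations across probe sets were 0.997 to 0.998 within a genotype and 0.994 to 0.996 between genotypes. Nfkbiz itself was not analysed here, so the knockout was not checked from these values. Of 7 measured keratinocyte markers, 1 (Col17a1) fell and 6 missed the threshold. Of 6 measured fibroblast markers, 5 fell (log2 fold changes: Twist2 -1.02, Dcn -0.97, Dpt -0.85, Thy1 -0.61, Lum -0.48) and 1 rose (Postn, 1.47). The linear signals of all 6, with Postn included, added up to 760 to 825 (wild-type) and 491 to 566 (knockout). Of 3 melanocyte markers 1 fell (Pmel, -0.28, limma adjusted p = 0.0173), all 3 had negative log2 fold changes, and the sums were 2820 to 2950 and 2180 to 2690. Of 9 leukocyte markers 1 fell (Tyrobp, -0.25, limma adjusted p = 0.0367), 8 were negative, and the sums were 265 to 300 and 246 to 265. None of 5 endothelial markers passed in limma, 4 were negative, and the sums were 92.8 to 98.9 and 81.1 to 95.3. No marker was at 0 on any array. The part of these other cell types in the results below was not tested. In RNA from whole cultures, fewer cells of a type and less RNA per cell cannot be told apart.

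Promoters of 4 members that passed the test are shown first, because 3 of them hold a match to a motif of an interferon or NF-kB factor and the fourth, that of the most raised proteasome subunit, holds none. Each runs from 250 bases before the annotated start to 30 bases after it, 5′ to 3′ on the gene's strand, with matches in capitals. The sequences are those of RefSeq on GRCm38.p6: Psme1 at chr14:55578244-55578523 on the plus strand, Psmb10 at chr8:105938363-105938642 on the minus strand, Trim13 at chr14:61597976-61598255 on the plus strand and Ube2c at chr2:164769679-164769958 on the plus strand.
Psme1: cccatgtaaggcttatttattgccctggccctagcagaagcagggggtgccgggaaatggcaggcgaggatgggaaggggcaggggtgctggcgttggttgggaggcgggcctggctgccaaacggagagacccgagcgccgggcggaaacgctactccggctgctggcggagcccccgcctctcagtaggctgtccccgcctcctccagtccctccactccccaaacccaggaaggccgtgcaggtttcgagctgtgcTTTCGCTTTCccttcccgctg
Psmb10: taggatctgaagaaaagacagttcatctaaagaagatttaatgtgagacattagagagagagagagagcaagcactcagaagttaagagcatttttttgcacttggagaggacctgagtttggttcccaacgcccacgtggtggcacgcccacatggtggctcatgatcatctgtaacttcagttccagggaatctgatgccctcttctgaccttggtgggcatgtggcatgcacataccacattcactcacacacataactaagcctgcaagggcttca
Trim13: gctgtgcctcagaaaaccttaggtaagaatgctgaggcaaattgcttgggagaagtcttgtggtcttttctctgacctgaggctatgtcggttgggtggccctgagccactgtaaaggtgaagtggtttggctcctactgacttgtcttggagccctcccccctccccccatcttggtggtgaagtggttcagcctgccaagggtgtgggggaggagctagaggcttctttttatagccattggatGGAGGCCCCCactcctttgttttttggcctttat
Ube2c: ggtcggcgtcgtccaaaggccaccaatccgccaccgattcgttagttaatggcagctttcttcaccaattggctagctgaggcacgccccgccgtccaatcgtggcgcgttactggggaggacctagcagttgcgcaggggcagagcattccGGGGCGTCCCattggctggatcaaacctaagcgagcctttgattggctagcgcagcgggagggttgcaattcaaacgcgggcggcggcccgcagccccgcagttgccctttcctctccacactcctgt
The capitals mark an interferon-stimulated response element (ISRE, GAAA and a second GAAA with any 2 bases between them, here on the opposite strand) in Psme1 and an NF-kB consensus in Trim13 and Ube2c. Both strands of the 250 bases before to 50 after each start were searched, for these motifs and for the STAT motif GAS (TTCNNNGAA). RefSeq promoters were found for 59 of the 73 members, with 70 promoters in all, and for 8 of the 9 genes that passed the test, all but Usp18. An ISRE was present in 2.86% of member promoters and 3.44% of the 32851 promoters searched, the GAS motif in 12.9% and 8.3%, and the NF-kB consensus in 7 of the 70 and in 8.46%. Among these 8 genes, the ISRE was found in 1, the NF-kB consensus in 2 and the GAS motif in 0. These matches are letters in a window and were not tested as binding sites.

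In knockout cells 6 of the 73 members rose and 3 fell (limma with Benjamini-Hochberg adjustment over all 9294 genes, threshold 0.05), and 64 did not pass. Usp18 rose the most, followed by the immunoproteasome subunit gene Psmb10, the ligase genes Trim47 and Trim39, the activator gene Psme1 and the mitotic E2 gene Ube2c, while Trim63, Trim13 and Trim54 fell. The 9 calls are 12.3% of the members, against 8.9% of all genes tested. In direction, 8.22% of members rose and 4.11% fell, against 4.47% and 4.43% of all genes. The share of calls is thus near the background. Their median log2 fold change was 0.01, and that of all genes was -0.01. With each array centred on its median, 7 members rose and 2 fell, and over all genes 482 rose and 314 fell in place of 415 and 412. The values of the genotypes did not overlap for 18 members (24.7%), against 15.9% of all genes. This share went with brightness, at 32.0% of the 50 members above all array medians and 4.76% of the 21 below them. Of all 9294 genes, 4932 lay above all array medians. All knockout arrays were above in 11 of the 73 members, against 7.91% of all genes, and below in 7 of the 73, against 7.97% of all genes.

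**Figure D1:**
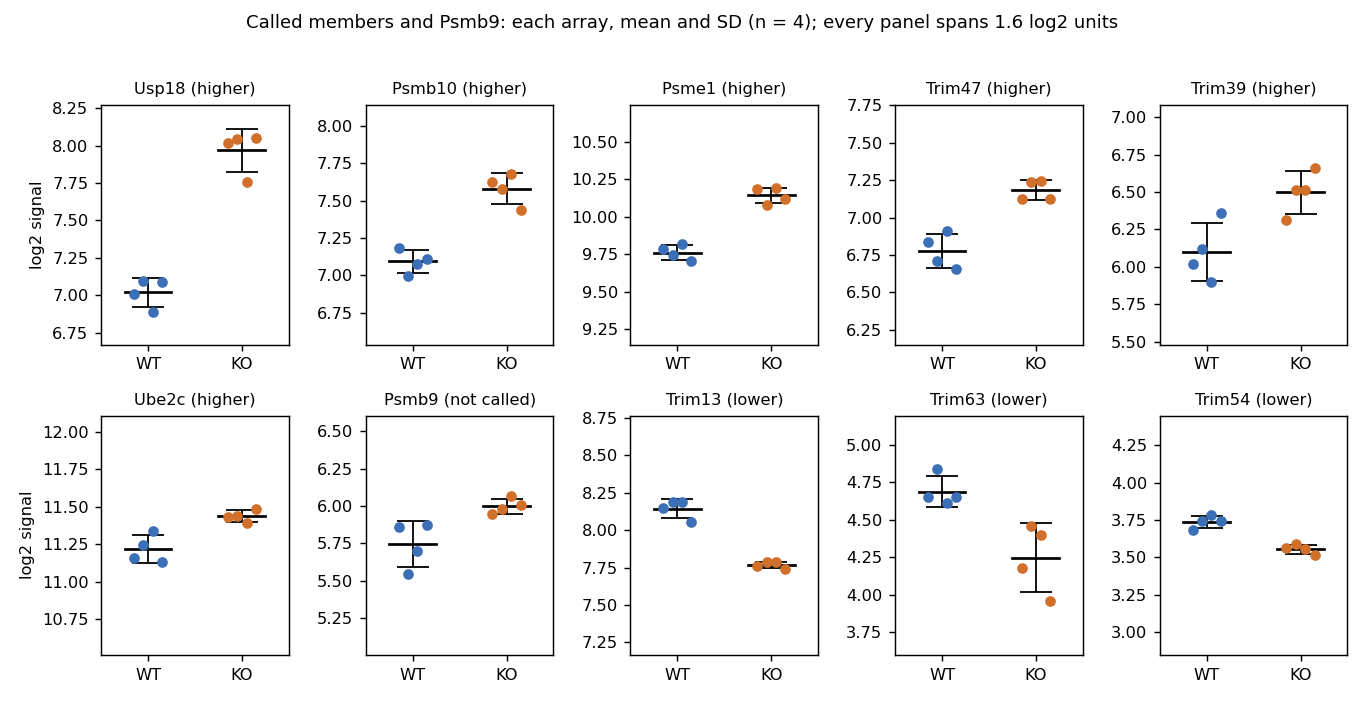
Log2 signal on each array (points), with mean and SD (n = 4 per group), for the 9 members that passed the test and for Psmb9, which did not. Every panel spans the same height, so that Usp18 (mean 7.02 to 7.97) shows the widest gap, and only Trim39 among the called genes has a wild-type array (6.36) above a knockout array (6.31).

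The constitutive proteasome was measured by 13 genes of the 20S rings and the 19S regulator, and none of them passed the limma test, against 8.9% of all genes. The groups did not overlap for 4 of the 13 (30.8%, against 15.9% of all genes), with all knockout arrays below in 3 and above in 1. All 13 lay above the array medians, and of the 50 members that did so, these included, 32.0% did not overlap. Their log2 fold changes ran from -0.18 to 0.15, with a median of -0.03, and the 95% intervals together spanned -0.30 to 0.26. The 4 beta subunits all lay between -0.03 and 0.04. Psmb5, which carries the chymotrypsin-like activity, read 10.76, 10.73, 10.76 and 10.78 in wild-type and 10.77, 10.66, 10.80 and 10.69 in knockout arrays, a log2 fold change of -0.03 ± 0.05 (SE; limma adjusted p = 0.847). Psmb6, of the caspase-like site, had 0.00 ± 0.05 (adjusted p = 0.989 by limma) and Psmb7, of the trypsin-like site, 0.04 ± 0.08 (adjusted p = 0.866 by limma). The groups overlapped for all 3 genes, and intervals of -0.14 to 0.09, -0.11 to 0.11 and -0.14 to 0.21 bound the differences that could have been missed. Psmb2, a structural subunit of the beta ring, had an interval of -0.13 to 0.09.

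In the alpha ring, which gates the barrel, Psma2 had a log2 fold change of -0.03 and Psma4 of -0.07, while Psma8, an alpha subunit of the testis, had mean signals under the lower quartile of every array, and detection was not assessed. Of the 19S ATPases that unfold substrates, Psmc3 and Psmc5 had -0.01 and -0.05. Among the 5 non-ATPase subunits the spread was wider. Psmd1, a large scaffold of the 19S base, read 10.70, 10.75, 10.73 and 10.81 in wild-type and 10.64, 10.61, 10.49 and 10.53 in knockout arrays. Every knockout value was below every wild-type value, but the log2 fold change of -0.18 ± 0.05 (SE) had an adjusted p of 0.070 in limma. Psmd8, a subunit of the 19S lid, stood the other way with 0.15 ± 0.05 (limma adjusted p = 0.113), again without overlap. Both passed when dim genes (log2 signal under 5) were dropped, with adjusted p of 0.0179 and 0.0291, and with trend and robust estimation, with 0.00117 and 0.00162. Psmd14, the deubiquitinase of the lid, Psmd12 and Psmd3 had log2 fold changes of -0.04, -0.03 and -0.08. The assembly factor genes Psmg1 and Psmd10 (gankyrin) had -0.11 and 0.13, and Psme3ip1 had 0.09.

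Of Psmb10, Psmb9 and Psme1, genes of the interferon-inducible proteasome, 2 of 3 rose, where 4.47% of all genes did. They were grouped after their values were seen. Psmb10, which replaces Psmb7 in the immunoproteasome and whose promoter without a match is shown above, read 7.18, 6.999, 7.08 and 7.11 in wild-type arrays and 7.63, 7.58, 7.68 and 7.44 in knockout arrays. The groups did not overlap, and the rise was 0.49 ± 0.07 (SE) on the log2 scale, 1.40-fold (limma adjusted p = 0.000643). Psme1, a subunit of the PA28 cap and the gene with the ISRE above, read 9.78, 9.74, 9.82 and 9.70 against 10.18, 10.08, 10.19 and 10.12, a rise of 0.38 ± 0.05 or 1.30-fold (limma adjusted p = 0.000691). Psmb9, which replaces Psmb6, read 5.86, 5.54, 5.70 and 5.87 in wild-type and 5.95, 5.98, 6.06 and 6.01 in knockout arrays. All knockout values of Psmb9 were the higher, but the log2 fold change of 0.25 ± 0.08 did not pass (limma adjusted p = 0.0640). It passed without wild-type RAS replicate 4 (0.30, adjusted p = 0.0489) and with arrays centred on their medians (adjusted p = 0.0468), and over all alternatives its adjusted p ran from 0.0239 to 0.159. Psmb11, the subunit of the thymus form, had 0.00 ± 0.08 and lay below the array medians. Other inducible genes such as Psmb8 and Psme2 were not analysed here.

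**Figure D2:**
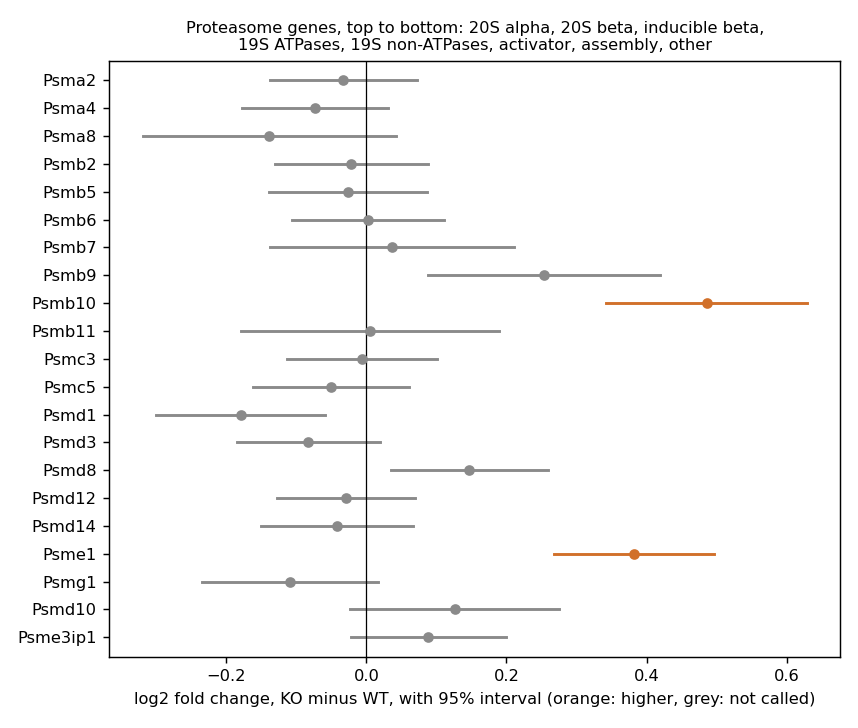
Log2 fold change of the 21 Psm genes, knockout minus wild-type, as points with 95% intervals (not adjusted for the number of genes), ordered by role from the alpha ring at the top. Psmb10 (0.49) and Psme1 (0.38) lie to the right of the constitutive subunits, which lie between -0.18 and 0.15.

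Each inducible catalytic subunit was also set against the constitutive one it replaces, within the same array, so that a shift shared by both genes cancels. The difference in log2 signal between Psmb10 and Psmb7 was -3.46, -3.52, -3.47 and -3.21 in wild-type and -2.99, -3.06, -2.71 and -3.10 in knockout arrays. Its mean moved by 0.45, without overlap between the genotypes. For Psmb9 and Psmb6 it was -4.99, -5.31, -5.20 and -4.94 in wild-type and -4.90, -4.89, -4.85 and -4.80 in knockout arrays, a shift of 0.25, again without overlap. These 2 pairs were picked after the values of the 4 genes had been seen, so the shifts are a description. For each pair an exact test gave the lowest p it can reach with 4 arrays per group, and it is not used as support. Leaving out any 1 array gave shifts of 0.37 to 0.52 for the first pair and 0.18 to 0.31 for the second. The difference itself has no meaning as a ratio of transcripts, since probe sets bind with different strength, and only its change between genotypes is read here.

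**Figure D3:**
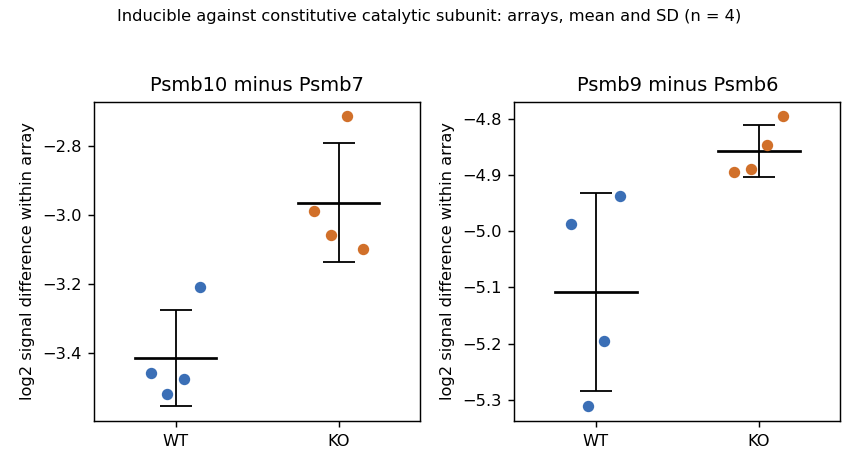
Difference in log2 signal within each array between an inducible subunit and its constitutive counterpart, with mean and SD (n = 4 per group). Knockout arrays lie above all wild-type arrays in both panels, with means of -2.96 against -3.41 for Psmb10 minus Psmb7 and -4.86 against -5.11 for Psmb9 minus Psmb6.

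Among the 15 Usp genes, Usp18 rose and 14 missed the limma threshold (6.67% called, against 8.9% of all genes). Usp18, which removes ISG15 from proteins and restrains the type I interferon receptor, read 7.01, 7.09, 6.89 and 7.09 in wild-type arrays and 8.02, 8.04, 7.75 and 8.05 in knockout arrays. Every knockout array was higher, and the rise of 0.95 ± 0.08 (SE) on the log2 scale was 1.93-fold (limma adjusted p = 1.81e-05). Knockout RAS replicate 3 was lower than the other three. Without any 1 array the log2 fold change stayed between 0.90 and 1.02. The E2 that loads ISG15, Ube2l6, read 4.45, 4.23, 4.02 and 4.09 in wild-type and 4.42, 4.54, 4.68 and 4.31 in knockout arrays. These groups overlapped, both group means of Ube2l6 were below the array medians, and its log2 fold change of 0.29 ± 0.10 did not pass (limma adjusted p = 0.123), although it did without wild-type RAS replicate 1 (0.37, adjusted p = 0.0355). Isg15 and Uba7 were not analysed here.

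The other Usp genes had log2 fold changes between -0.10 and 0.16. Usp33 read 8.29, 8.20, 8.32 and 8.14 in wild-type and 8.35, 8.42, 8.34 and 8.39 in knockout arrays, so its groups stood just apart, with 0.14 ± 0.06 (SE; limma adjusted p = 0.188). Usp8, which acts on receptors such as that of EGF at endosomes, had 0.12 ± 0.06, Usp5, which takes apart free ubiquitin chains, 0.05 ± 0.06, and Usp28, which stabilises Myc, 0.03 ± 0.08. Usp10, Usp25 and Usp38 had -0.04, -0.04 and -0.02. Usp17la, the germ-line gene Usp26 and the mitotic checkpoint gene Usp44 had mean signals under the lower quartile of every array. Usp9y and Usp11 lay below the array medians.

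Of the 11 Ube2 genes, Ube2c rose and 10 did not pass (9.09% called, near the 8.9% of all genes). Ube2c, the E2 of the anaphase-promoting complex that drives exit from mitosis, read 11.16, 11.24, 11.34 and 11.13 in wild-type and 11.43, 11.44, 11.39 and 11.49 in knockout arrays. The groups did not overlap, and the rise was 0.22 ± 0.06 (SE), or 1.16-fold (limma adjusted p = 0.0408). Dropping any array except wild-type RAS replicate 3 ended the call of Ube2c, with log2 fold changes of 0.19 to 0.24 and adjusted p of 0.0629 to 0.103. Ube2d1, a broadly acting E2, had 0.16 ± 0.06 without overlap (limma adjusted p = 0.144), and Ube2o, an enzyme with both E2 and E3 activity, had -0.16 ± 0.07 without overlap (limma adjusted p = 0.184). Ube2e1, Ube2e2, the E2 of the endoplasmic reticulum Ube2j2 and Ube2q2 lay between -0.02 and 0.05, Ube2cbp had -0.11, and Ube2d2b and Ube2u had mean signals under the lower quartile of every array.

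**Figure D4:**
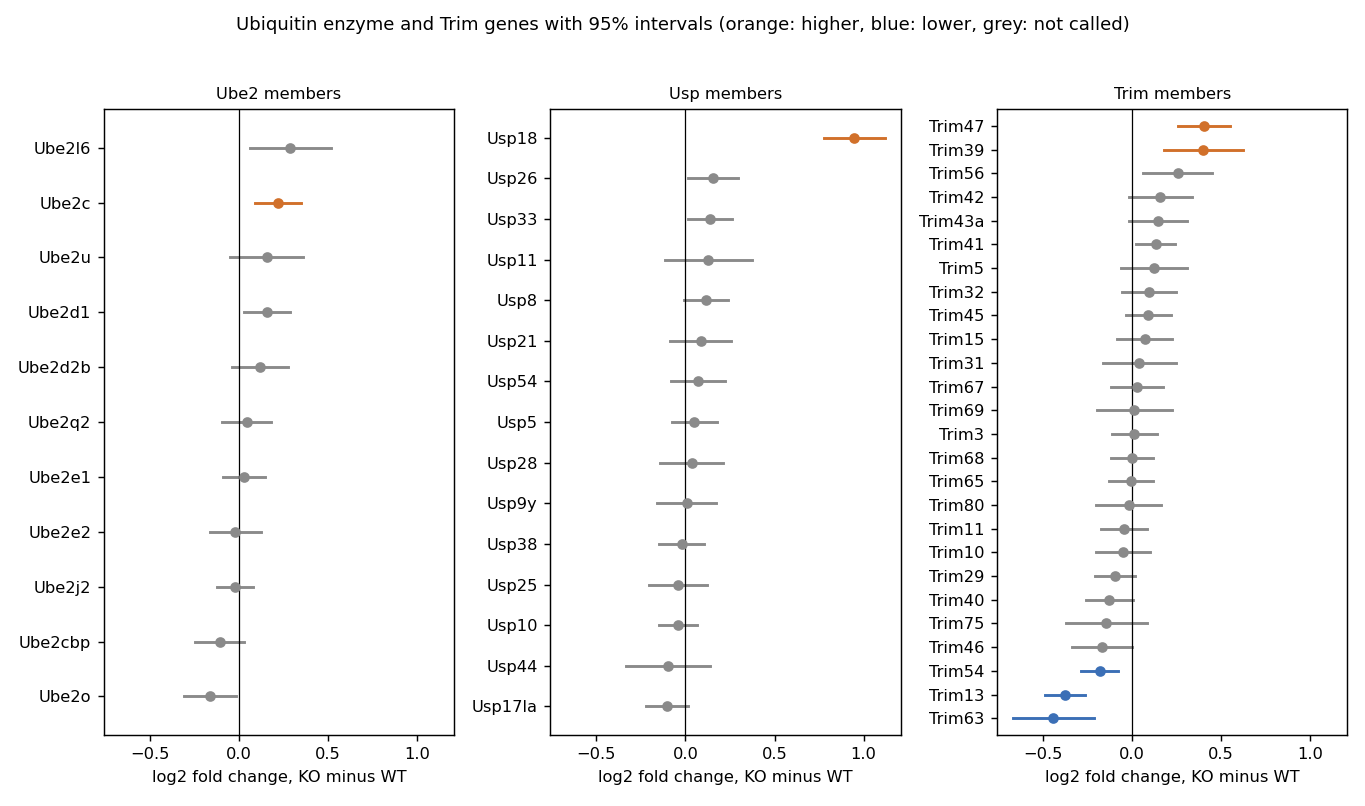
Log2 fold changes, knockout minus wild-type, with 95% intervals (not adjusted for the number of genes) for the 11 Ube2, 15 Usp and 26 Trim genes, each family ordered by size. Usp18 (0.95) lies apart from all others, and the Trim genes run from Trim63 (-0.44) to Trim47 (0.41).

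Of the 26 Trim members, 2 rose, 3 fell and 21 missed the limma threshold (19.2% called, against 8.9% of all genes), and the family's median log2 fold change was 0.01. Leaving out single arrays gave 1 to 2 higher and 1 to 2 lower. Trim47, a RING ligase, read 6.83, 6.71, 6.91 and 6.66 in wild-type and 7.13, 7.24, 7.25 and 7.13 in knockout arrays. Its groups did not overlap and it rose by 0.41 ± 0.07 (SE), or 1.33-fold (limma adjusted p = 0.00251). Trim39, a ligase that acts on the apoptosis regulator MOAP-1, read 6.02, 6.12, 5.90 and 6.36 against 6.31, 6.51, 6.51 and 6.66. It rose by 0.40 ± 0.10, and wild-type RAS replicate 4 overlapped with replicate 1 of the knockouts (limma adjusted p = 0.0315). Dropping any array except those 2 ended the call of Trim39, with adjusted p of 0.0647 to 0.0870 and log2 fold changes of 0.33 to 0.41.

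Trim13, a ligase in the membrane of the endoplasmic reticulum, read 8.15, 8.19, 8.19 and 8.05 in wild-type arrays and 7.76, 7.79, 7.79 and 7.74 in knockout arrays. The groups did not overlap, and the log2 fold change was -0.37 ± 0.05 (SE; limma adjusted p = 0.000686). Trim63 and Trim54 encode MuRF1 and MuRF3, ligases of the contractile apparatus of muscle. Trim63 read 4.65, 4.84, 4.61 and 4.65 in wild-type and 4.18, 4.46, 4.40 and 3.96 in knockout arrays, a log2 fold change of -0.44 ± 0.10 (limma adjusted p = 0.0217). Its knockout values lay below all array medians, and the call was lost without knockout RAS replicate 1 or without wild-type RAS replicate 2 or 4 (adjusted p = 0.0611, 0.0648 and 0.0517, log2 fold changes -0.42, -0.39 and -0.45). Trim54 read 3.69, 3.74, 3.78 and 3.74 against 3.56, 3.59, 3.56 and 3.51, also without overlap, with -0.18 ± 0.05 (limma adjusted p = 0.0395). It lay below the array medians throughout, and its call was lost without any single array (adjusted p of 0.0513 to 0.0963 and log2 fold changes of -0.20 to -0.17) and under both rescalings (adjusted p = 0.0702 with quantile normalization and 0.113 with centring). Trend and robust estimation ended it too (adjusted p = 0.171).

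Of 14 listed interferon-linked Trim genes, 2 were measured and neither passed. Trim56, which takes part in antiviral signalling, read 6.75, 6.70, 6.74 and 6.97 in wild-type and 7.06, 6.88, 7.27 and 6.99 in knockout arrays, with 0.26 ± 0.09 (SE; limma adjusted p = 0.108). Wild-type RAS replicate 4 exceeded 1 knockout array. It passed when dim genes (log2 signal under 5) were dropped and with trend and robust estimation (adjusted p = 0.0484 and 0.0265). Trim5, of the family known for restriction of retroviruses, had 0.12 ± 0.08 at mean signals under the lower quartile of every array. Trim29, a gene of stratified epithelia, read 11.19 to 11.29 in wild-type and 11.09 to 11.20 in knockout arrays, with -0.10 ± 0.05 (limma adjusted p = 0.341). Trim41 had 0.13 ± 0.05 without overlap (limma adjusted p = 0.157), and the remaining Trim genes had log2 fold changes of -0.17 to 0.16.

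Genes around these families were read from lists of the pathway. In the list of ubiquitin genes and E1 enzymes, 3 of 20 were measured. Ubd, which encodes the ubiquitin-like modifier FAT10 that delivers proteins to the proteasome, read 5.54, 4.92, 5.41 and 5.34 in wild-type and 8.26, 7.72, 7.98 and 7.73 in knockout arrays, and rose by 2.62 ± 0.14 (SE; limma adjusted p = 9.58e-07). Nedd8 and Nae1, the cullin modifier and a subunit of its E1, both had 0.03. Of 6 proteasome regulators and shuttle factors, none passed in limma, with log2 fold changes of -0.16 to 0.03. They include Nfe2l1 (-0.08 ± 0.06), the factor that raises proteasome genes when the proteasome is inhibited, and Pomp (-0.02 ± 0.05), which helps assemble the 20S barrel.

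Of 10 measured ligases outside Trim, Rnf213 rose by 0.45 ± 0.07 (SE; limma adjusted p = 0.00268) and 9 did not pass. Rnf213, a very large ligase induced by interferon, read 7.35, 7.31, 7.08 and 7.38 against 7.71, 7.63, 7.74 and 7.85. Of 7 genes of the cullin-RING core, Cul7 rose by 0.27 ± 0.07 (limma adjusted p = 0.0346), and of 6 other deubiquitinases, Mpnd rose by 0.18 ± 0.05 (limma adjusted p = 0.0491). Leaving out single arrays ended both calls in several runs. For Cul7 these were wild-type RAS replicates 2 and 3 and knockout RAS replicates 1, 2 and 3 (0.22 to 0.27, adjusted p up to 0.0990), and for Mpnd every array (0.16 to 0.20, adjusted p of 0.0544 to 0.129). The call of Mpnd was also lost with quantile normalization, with array weights and without _x_at and _s_at probe sets. None of the 3 measured peptide-loading genes of MHC class I passed. Tap2, a chain of the peptide transporter, had 0.21 ± 0.06 without overlap (limma adjusted p = 0.0590). H2-M3 had 0.22 ± 0.08, also without overlap (limma adjusted p = 0.142), with knockout RAS replicate 1 the highest at 6.63. Nlrc5, an activator of class I genes, had -0.12 ± 0.06.

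Interferon signalling genes were measured for 7 of 18 listed. Of these, 3 rose (42.9%, against 4.47% of all genes) and 4 missed the limma threshold. The median log2 fold change of the 7 was 0.15. The list was chosen with earlier results of these data known, so the share is a description only. Irf1, which drives immunoproteasome genes, read 8.38, 8.24, 8.22 and 8.28 in wild-type and 8.79, 8.66, 8.80 and 8.79 in knockout arrays, a rise of 0.48 ± 0.06 (SE; limma adjusted p = 0.000302). Irf9, the DNA-binding part of the type I interferon complex, rose by 0.49 ± 0.08 (limma adjusted p = 0.0018), and Irf7 by 0.44 ± 0.06 (limma adjusted p = 0.000606). Socs1, an inhibitor of interferon signalling, had -0.17 ± 0.06 (limma adjusted p = 0.139), and Ifngr1, Irf2 and Tyk2 had 0.08, 0.12 and 0.15. For all 3 that rose, the knockout arrays lay above all wild-type arrays.

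**Figure D5:**
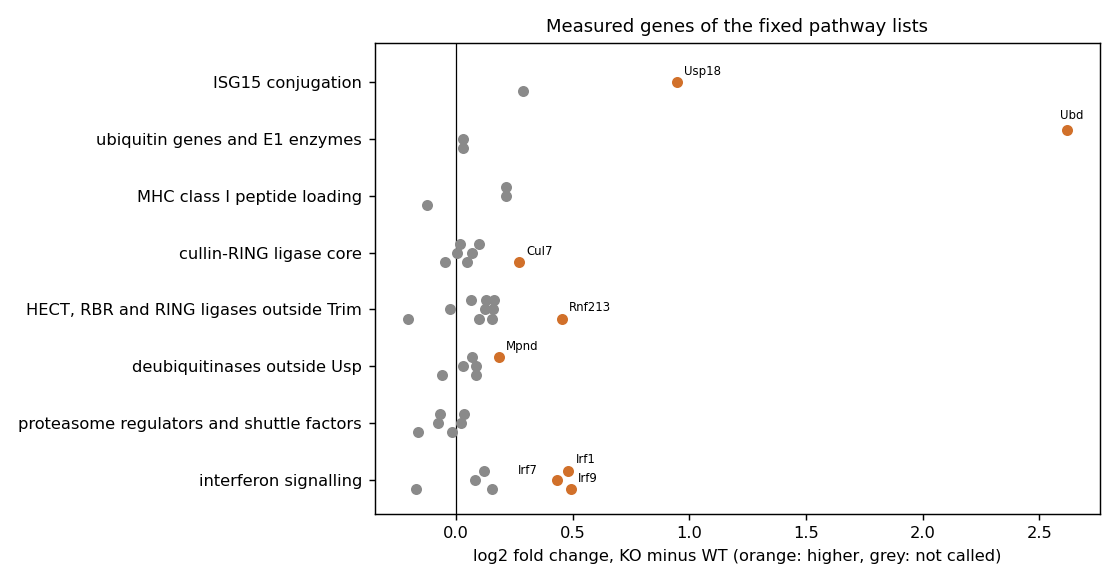
Log2 fold change, knockout minus wild-type, of each measured gene of the 8 pathway lists (points, orange where called higher, spread vertically within a list for sight only). Ubd (2.62) and Usp18 (0.95) lie farthest to the right, and no gene of these lists was called lower.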

How the data were processed

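Biotin-labelled total RNA of 8 samples (4 per genotype) was measured on one-colour arrays. The authors' deposited table holds log2 signals for 11373 probe sets, taken as log2 from their range of 1.57 to 13.9. How they were summarised and normalized, and on which genome build, is not given in the sources used here. In the platform's annotation, 9374 probe sets have 1 gene symbol, 479 several and 1520 none, and 6 of those with several match the names used here and were left out. Entrez identifiers matched all 73 members to the RefSeq gene table of GRCm38.p6, which served for names and gene order, and the promoter table of that build for sequences. A total of 4 members rest on _s_at probe sets, which can bind several transcripts, and detection calls were not analysed here.

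Genotypes were compared in R 4.3.3 by the lmFit and eBayes functions (limma 3.58.1), without covariates, on 9294 genes, with Benjamini-Hochberg adjustment over all of them. The fit was tested on simulated data. Alternatives were quantile normalization, median centring, leaving out the lowest 25% of genes or dim genes (log2 signal under 5), averaging probe sets, leaving out _x_at and _s_at probe sets, trend and robust estimation, array weights, the replicate number as a block, and leaving out each array. The labels call the samples biological replicates, whose spread the p-values reflect.

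The members and lists were chosen with earlier results of these data known. Named by rule were the called members, Psmb5, Psmb6, Psmb7, Psmb9, Psmb10, Psme1, Ube2l6 and Usp18 in any case, and up to 3 called genes with the largest change of each pathway list, 21 genes in all. Every other gene named, and the within-array comparison of subunits, were chosen after their values were seen.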

Additional observations from a re-analysis of the deposited data

Results flagged for a closer look

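Among 80 genes with values for 4 arrays of each genotype, 3 of 160 groups held an array far from the other three by Dixon's test at 95% (1.88%), where chance alone gives about 1 in 20. In Usp18, knockout RAS replicate 3 read 7.75 while the other knockout arrays read 8.02 to 8.05, and all lay above the wild-type arrays. In Irf1, knockout RAS replicate 2 read 8.66 against 8.79 to 8.80. In Trim3, whose log2 fold change of 0.01 did not pass the test, the same replicate read 6.33 against 6.44 to 6.46.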

How the results depend on the processing

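Of the 9 called members, Usp18, Psmb10, Psme1, Trim47 and Trim13 kept their call and direction in all 17 alternatives, and 4 lost it in at least 1. Of the 64 members not called, 6 passed in at least 1 alternative. No called value changed sign in any alternative. Members called higher numbered 6, and 10 when dim genes (log2 signal under 5) were dropped. Under that filter 4 Psm and 4 Trim genes were higher, and 1 Psm and 1 Trim gene lower, in place of 2, 2, 0 and 3 (Trim63 and Trim54 are themselves dim and were dropped). Trend and robust estimation gave 4 Psm genes higher and 1 lower, and 1 Psm gene was lower with the lowest 25% of genes left out. Leaving out single arrays gave 4 to 6 members higher and 1 to 2 lower (1 without knockout RAS replicate 1 or wild-type RAS replicate 2 or 4), 1 to 2 Trim genes higher and 1 to 2 lower, 0 to 1 Ube2 genes higher, 598 to 687 of all genes called in place of 827, and 19 to 26 members without overlap in place of 18, since fewer arrays overlap less often. With the replicate number as a block, 5 members were higher and 2 lower, and 0 Ube2 genes were called. The calls of Ube2c, Trim54, Cul7 and Mpnd were lost under the block. Across genes, the deviations from the genotype mean correlated at -0.05 to 0.09 between same-numbered arrays of the genotypes. These correlations cannot show whether same-numbered samples were prepared together, since a pairing without a large shared shift would leave them low. The number of arrays limits the precision, and 21 members had group means below all array medians, without a check of detection.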

Other observations

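The position of the members was not used to choose them. By gene order in the RefSeq table, Trim15, Trim10, Trim40 and Trim31 follow each other on chromosome 17, and Trim39 lies on the same chromosome nearby. Trim39 rose by 0.40 ± 0.10 (SE), while Trim10, Trim15, Trim31 and Trim40 had log2 fold changes of -0.05, 0.07, 0.04 and -0.13 and did not pass the limma test. Trim10, Trim15 and Trim31 had group means below all array medians. Psmb9 and Tap2 lie in 1 stretch of that chromosome with Tap1 and Psmb8 between them, and had 0.25 and 0.21. On chromosome 14, Psme1 is followed by Emc9, Psme2, Rnf31 and Irf9. Psme1 and Irf9 rose by 0.38 and 0.49, and Rnf31, a ligase subunit that builds linear ubiquitin chains, had 0.13 (limma adjusted p = 0.198). The values of Emc9 and of other tested neighbours are not given here, and whether neighbouring genes changed together was not tested. Psmb5 and Psmb11, also on that chromosome and next to each other, had -0.03 and 0.00.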
